A study of Mus musculus with 24 samples.

Results

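The early transcriptional response of mouse embryonic stem cells (mESCs) to release from MEK inhibition was followed 2 h after PD03 removal. The comparison rests on 8 of the 24 samples of the series, 4 collected at 2 h and 4 collected at 0 h, and was chosen by time and by the inhibitor removed, with the substrate as a block. All cells were wild-type E14 mESCs of a 129 background, grown on fibronectin-coated StemBond hydrogels, which are polyacrylamide gels with stable matrix tethering. Cells spent 12 h on soft or stiff gels in 2i + LIF, a medium with 1 µM PD03 (an inhibitor of MEK), 3 µM CHIRON (an inhibitor of GSK3) and the cytokine LIF. The 0 h samples were collected in this medium, and the 2 h samples were moved to CHIRON + LIF and collected 2 h later. The change of medium, the loss of PD03 and the 2 h longer on the gel therefore cannot be told apart. Each substrate and time had 2 samples of the same cell line. The labels do not say whether these came from separate cultures, so the p-values measure the spread between these samples only.

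MEK phosphorylates the kinase ERK, which enters the nucleus and activates ETS factors, SRF and AP-1 proteins. Within minutes to hours these induce immediate early genes such as *Egr1* and *Fos*, and then feedback inhibitors, among them the Dusp phosphatases and the Sprouty proteins, which dampen the same cascade. In mESCs FGF4 signals through ERK and drives the exit from naive pluripotency, and PD03 is added to the medium to hold that signal down.

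RNA was depleted of ribosomal RNA before sequencing and is given as counts per gene, from 16736395 to 26401833 per library. Levels are library-size normalised counts (CPM) scaled by TMM over the 12 libraries of PD03 removal, and compare libraries rather than genes, since they are not divided by length. Fold changes are from edgeR's quasi-likelihood test on the 8 libraries, on the log2 scale with their standard error (SE), and a gene is said to rise or fall when its adjusted p was under 0.05. The libraries carried the transcripts expected of naive mESCs, with *Pou5f1* from 755 to 836 CPM, *Nanog* from 752 to 856 CPM and *Esrrb* from 788 to 865 CPM over the 8 libraries. Markers of other cell types were measured as summed levels at 0 h and at 2 h. The sums were 2.99 to 3.75 CPM and 2.52 to 4.06 CPM for 7 primitive endoderm markers, and 7.26 to 9.06 CPM and 6.52 to 8.40 CPM for 5 fibroblast markers. They were 16 to 18.7 CPM and 17.2 to 18.3 CPM for 5 mesendoderm markers, and 47.8 to 51.4 CPM and 45.2 to 48.2 CPM for 6 trophoblast markers. The 4 neural markers summed to 47.5 to 59.9 CPM and 48.4 to 54.9 CPM, and the 6 cleavage-stage-like markers to 97.5 to 110.2 CPM and 104.9 to 112.9 CPM. None of these markers was at 0 in all 8 libraries, and the ranges of 0 h and 2 h overlapped for each of the 6 lists.

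Removal of PD03 was followed by a rise of 444 transcripts (2.45%) and a fall of 327 (1.81%) within 2 h, of 18103 genes tested. Most changes were small. The median log2 fold change of the risers was 0.28 and that of the fallers was -0.24, while the median of all genes was -1.79e-05. Of the risers 36 exceeded 1 on the log2 scale and 105 exceeded 0.5, whereas 7 fallers exceeded 1 and 45 exceeded 0.5 in the downward direction. In 346 of the risers and 253 of the fallers the 4 libraries of 2 h lay entirely to 1 side of the 4 of 0 h, as did 1487 of all 18103 genes tested. The 444 risers had the same sign on soft and on stiff substrates, and so had 326 of the 327 fallers. The calls came from a fit over both substrates, so this agreement follows largely from the selection and is no replication.

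**Figure D1:**
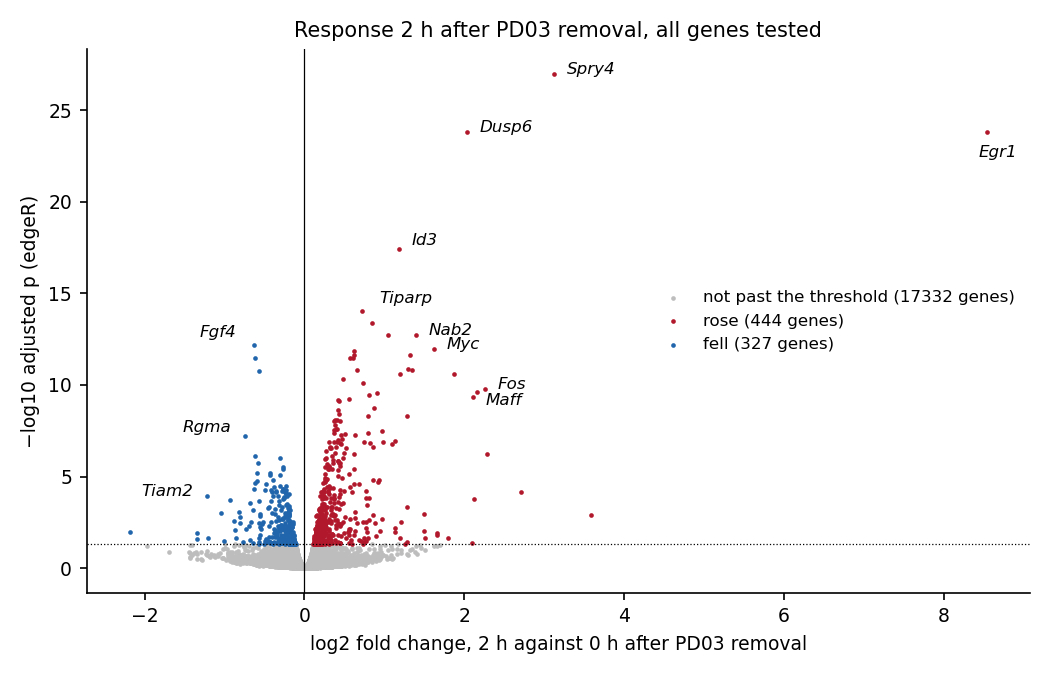
Each point is 1 of 18103 genes, with its log2 fold change at 2 h against 0 h after PD03 removal on the x axis and the negative log10 of the adjusted p (edgeR) on the y axis. Red points are the 444 genes that rose, blue points the 327 that fell and grey points the rest, and the dotted line is the threshold of 0.05. *Egr1* lies farthest to the right, at 8.54, and most other called genes lie within 1 of zero.

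The 3 marker genes of ERK activity rose together. *Egr1*, a zinc finger transcription factor, had 7 counts in the 4 libraries of 0 h together and 2291 in those of 2 h. On soft substrates it reached 17.0 and 17.6 CPM at 2 h, on stiff substrates 40.4 and 46.4 CPM, and no library of 0 h exceeded 0.196 CPM. Its log2 fold change was 8.54 ± 0.21 (adjusted p = 1.5e-24). *Dusp6*, the cytoplasmic phosphatase of ERK, went from 26.4 and 26.1 CPM to 96.1 and 98.4 CPM on soft substrates and from 29.0 and 30.9 CPM to 132 and 134 CPM on stiff substrates. *Fos*, the AP-1 subunit, went from 1.86 and 1.29 CPM to 5.05 and 4.71 CPM on soft and from 1.57 and 1.15 CPM to 8.34 and 10.3 CPM on stiff. For all 3 genes every library of 2 h was above every library of 0 h. *Egr1* and *Fos* were back at 0.445 CPM or less and at 1.34 CPM or less in the 4 libraries of 12 h, while *Dusp6* stood between 57.7 and 76.4 CPM.

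Beyond the Dusp genes, *Egr1* and *Fos*, the largest rise among genes with a mean of at least 1 CPM was that of *Spry4*, a Sprouty inhibitor of receptor tyrosine kinase signalling. It was at 15.1 and 16.1 CPM (soft) and 22.9 and 17.9 CPM (stiff) at 0 h and at 133 and 136 CPM (soft) and 165 and 189 CPM (stiff) at 2 h. The log2 fold change was 3.13 ± 0.06, and the lowest library of 2 h was above the highest of 0 h. Its level remained between 79.1 and 110 CPM at 12 h. *Krt23*, an acidic keratin, rose by 2.29 ± 0.27 from at most 0.623 CPM, and *Phlda1*, a pleckstrin homology-like protein, rose by 2.16 ± 0.18 from at most 2.01 CPM. *Maff*, a small Maf transcription factor, rose by 2.11 ± 0.18 and had gone from 1.82 CPM or less to at least 4.24 CPM. *Myc* was at 3.82 and 3.31 CPM (soft) and 4.42 and 4.53 CPM (stiff) at 0 h. It was at 11.1 and 9.66 CPM (soft) and 13.5 and 15.5 CPM (stiff) at 2 h, a rise of 1.63 ± 0.11, and between 8.31 and 15 CPM at 12 h. The 12 largest rises by the naming rule were completed by *Nab2* (1.40 ± 0.08), a corepressor of the EGR factors, by *Soga3* (1.34 ± 0.10) and *Fjx1* (1.32 ± 0.09), and by the protease gene *Prss50* (1.28 ± 0.23). *Id1* (1.28 ± 0.12), a dominant-negative helix-loop-helix protein, the cyclooxygenase gene *Ptgs2* (1.20 ± 0.25) and *Junb* (1.20 ± 0.09) followed. The call of *Ptgs2* rested on 1 library, since it was lost without stiff 2 h replicate 2, the highest at 4.00 CPM, where the 8 fits that each left out a library gave from 0.88 to 1.34.

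The largest falls among genes with a mean of at least 1 CPM were smaller, and most were of genes of low level. *Tiam2*, an exchange factor for Rac, was at 3.12 and 3.12 CPM (soft) and 2.35 and 2.71 CPM (stiff) at 0 h and at 1.82 and 0.954 CPM (soft) and 0.981 and 1.08 CPM (stiff) at 2 h. It fell by 1.21 on the log2 scale (SE 0.20). *Has3*, a hyaluronan synthase, fell by 1.04 (SE 0.20) and the kinase anchor gene *Akap5* by 0.87 (SE 0.20). *Rgma*, a repulsive guidance molecule and BMP co-receptor, was the most abundant of those named. It was between 16 and 18.5 CPM in the 4 libraries of 0 h and between 9.30 and 11.6 CPM in those of 2 h, without overlap, and was again between 16.8 and 18.1 CPM at 12 h. *Fgf3* fell by 0.81 (SE 0.15), *Sema3b* by 0.80 (SE 0.17), *Nod2* by 0.70 (SE 0.16), *Lrrc15* by 0.68 (SE 0.12) and *Htr5a* by 0.66 (SE 0.14). *Snai1*, a repressor known from epithelial-mesenchymal transition, had a log2 fold change of -0.85 ± 0.23 and *Cbx8*, a Polycomb subunit, one of -0.69 ± 0.19. Both are weak calls, and neither was made by DESeq2 or, for *Cbx8*, without the substrate block. That of *Snai1* was lost without soft 0 h replicate 1, stiff 0 h replicate 1 or either stiff library of 2 h (-0.90 to -0.78 over the 8 fits). That of *Cbx8* was lost without soft 0 h replicate 2, soft 2 h replicate 1, stiff 0 h replicate 2 or stiff 2 h replicate 1 (-0.83 to -0.55).

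**Figure D2:**
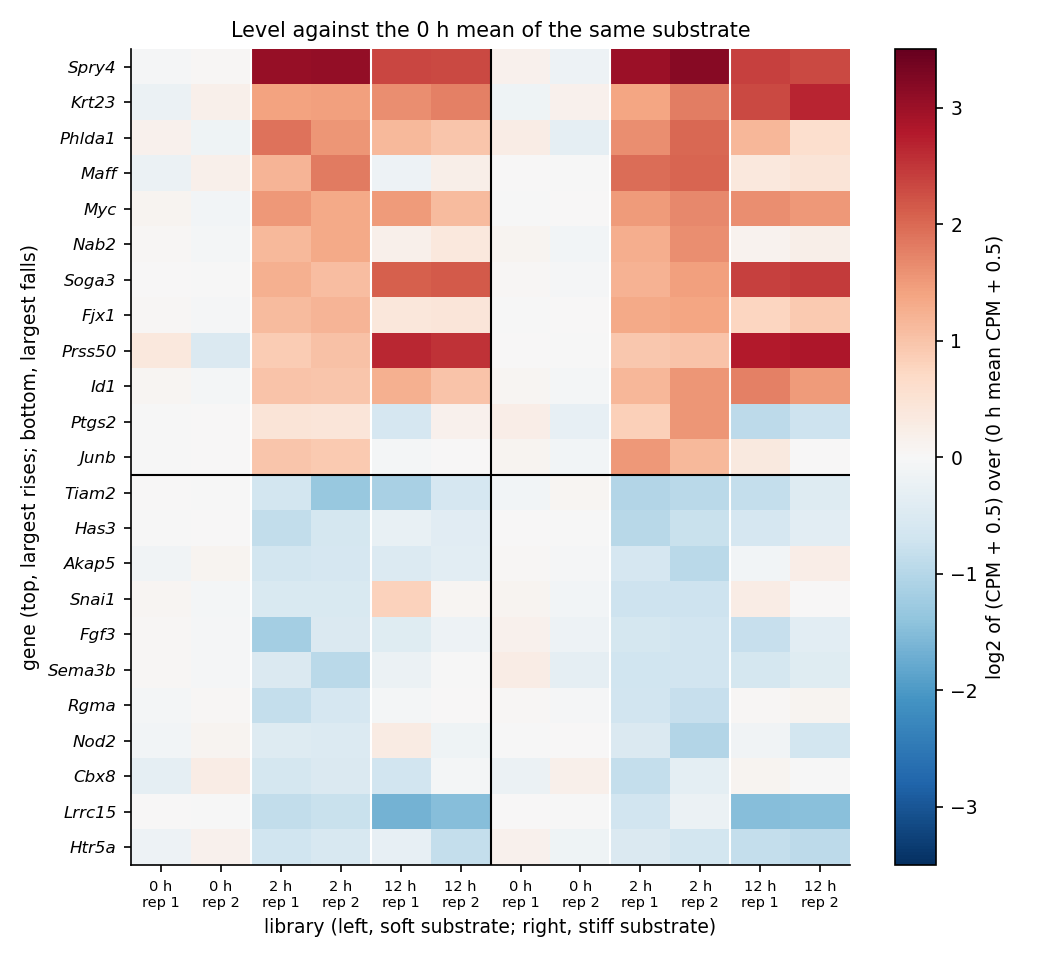
Rows are the 12 largest rises and 11 of the 12 largest falls by the naming rule and columns the 12 libraries of PD03 removal, soft on the left and stiff on the right. Colour is the log2 of CPM + 0.5 over the 0 h mean of the same substrate + 0.5, with blue below and red above zero and limits of 3.5 either way. *Maff*, *Nab2* and *Junb* are red at 2 h and near white at 12 h, while *Soga3* and *Prss50* are darker at 12 h than at 2 h.

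Among the feedback inhibitors of the cascade calls were mostly rises. Of 9 Dusp genes tested 4 rose and none fell in edgeR or DESeq2, 2 being lower at an unadjusted p under 0.05. Beside *Dusp6*, the nuclear phosphatase *Dusp4* rose by 1.88 ± 0.14, *Dusp5* by 1.29 ± 0.09 and *Dusp1* by 0.43 ± 0.07. *Dusp1* was between 20.4 and 26.2 CPM at 0 h and between 28.1 and 34.3 CPM at 2 h, and *Dusp9*, the phosphatase best known in mESCs, had a log2 fold change of 0.02 ± 0.05 (adjusted p = 0.89). Of 18 Sprouty, Spred and related inhibitors 7 rose and 1 fell. *Spry2* went from 66.0 and 64.8 CPM to 95 and 100.4 CPM on soft and from 74.4 and 66.3 CPM to 111 and 110.2 CPM on stiff, a rise of 0.62 ± 0.04. *Spry1* (0.83 ± 0.09), the pseudokinase gene *Trib1* (0.88 ± 0.08) and *Spred1* (0.39 ± 0.04) rose as well, with *Errfi1* and *Il17rd*, and *Lrig1* fell (-0.17 ± 0.05). The call of *Lrig1* was not made by DESeq2 or with all 12 libraries, and was lost in at least 1 fit that left out a library. Of the 10 genes of the MAPK pathway activity list 7 rose and 1 (*Ccnd1*, cyclin D1) fell, and the list's median was 0.62 against -1.79e-05 over all genes.

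Of the genes of the cascade itself 1 rose and 1 fell among 32, numbers near those that 2.45% and 1.81% of all genes give. Among these genes for Ras, Raf, MEK, ERK and their scaffolds *Braf* rose (0.22 ± 0.05) and the scaffold gene *Ksr1* fell (-0.37 ± 0.07), and the median was -0.00162. *Braf* was between 43.0 and 46.9 CPM at 0 h and between 48.3 and 55.4 CPM at 2 h, and its call was lost without soft 2 h replicate 1, where the 8 fits gave 0.18 to 0.25. Among 18 ETS factors *Etv4*, a target of FGF signalling, rose from between 93.6 and 108 CPM to between 122 and 140 CPM (0.38 ± 0.04). It was higher still at 12 h, at 201 to 256 CPM. *Etv1* also rose (0.20 ± 0.06), a call lost in 7 of the 8 fits that each left out 1 library (all but that without stiff 0 h replicate 1), which gave 0.16 to 0.22, and also lost with DESeq2, without the filter on low counts, with all 12 libraries and without the substrate block. *Spic*, an ETS factor of the PU.1 branch, fell by 0.64 (SE 0.10) from between 9.17 and 11.7 CPM to between 5.84 and 7.81 CPM. *Etv5*, the close relative of *Etv4*, had a log2 fold change of 0.04 ± 0.03 (adjusted p = 0.68).

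Immediate early transcription factors and regulators held the largest number of risers of any list, with 14 of 28 tested members higher and 3 lower. *Junb*, an AP-1 subunit, went from 10.8 and 10.8 CPM to 21.6 and 21 CPM on soft and from 10.9 and 9.61 CPM to 30.6 and 23.0 CPM on stiff, and at 12 h it was between 10.3 and 13.3 CPM. *Nab2* went from between 9.06 and 12.4 CPM to between 21.1 and 36.7 CPM, and returned to between 10.8 and 13.4 CPM at 12 h. *Egr2* rose by 3.59 ± 0.70, but did not meet the naming rule, a mean of at least 1 CPM and replicates separate on each substrate. *Gadd45a* rose by 0.74 ± 0.08, *Arc* by 0.56 ± 0.08, *Csrnp1* by 0.49 ± 0.06, *Ier2* by 0.42 ± 0.05 and *Srf*, the serum response factor itself, by 0.27 ± 0.05. Not every early gene rose. *Klf10* (-0.26 ± 0.04), *Gadd45b* (-0.30 ± 0.07) and *Klf6* (-0.16 ± 0.05) fell, and *Jun* had a log2 fold change of 0.36 ± 0.22 (adjusted p = 0.47). Of 13 genes that act in mRNA decay or slow proliferation, the 3 tristetraprolin family genes *Zfp36l1* (0.55 ± 0.05), *Zfp36l2* (0.63 ± 0.08) and *Zfp36* (0.77 ± 0.16) rose, as did the RNase gene *Zc3h12a* (0.75 ± 0.20), and *Tob1* fell by 0.57 (SE 0.12). These proteins bind or cut AU-rich and other short-lived messages. *Zfp36l1* was between 47.5 and 50.8 CPM at 0 h and between 64.2 and 78.8 CPM at 2 h, with no overlap. The libraries of *Zfp36* overlapped on soft substrates (3.69 and 4.51 CPM at 0 h, 5.80 and 4.29 CPM at 2 h). Its log2 fold change was 0.32 on soft and 1.24 on stiff.

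Several of these genes are known targets of SRF and of CREB. The 250 bases before the start site are shown from RefSeq (GRCm38.p6) for some risers picked because they held a match. A matching CArG box, the binding motif of SRF, or a CRE (TGACGTCA) is in capitals, and both were searched on both strands. *Dusp5* on chr19:53528895-53529144 (plus strand) held a pair of adjoining CArG boxes, the nearer starting 72 bases before the start site. *Zfp36* on chr7:28379229-28379478 (minus strand) held 1 CArG box 58 bases before it, and *Actg1*, the cytoplasmic gamma-actin gene on chr11:120348496-120348745 (minus strand), 1 at 90 bases. *Maff* on chr15:79347270-79347519 (plus strand) held a CRE 29 bases before it and *Dusp1* on chr17:26508473-26508722 (minus strand) a CRE at 143 bases. The window of *Maff* is 1 of 3 given for its start sites, and the other 2 held no match. Fallers held matches too, with a CRE 29 bases before the start site of *Cbx8* and a CArG box 32 bases before that of *Cyp1a1*. The windows of the risers *Fos*, *Junb*, *Nab2*, *Dusp6* and *Spry2* held no match to either motif.
Dusp5: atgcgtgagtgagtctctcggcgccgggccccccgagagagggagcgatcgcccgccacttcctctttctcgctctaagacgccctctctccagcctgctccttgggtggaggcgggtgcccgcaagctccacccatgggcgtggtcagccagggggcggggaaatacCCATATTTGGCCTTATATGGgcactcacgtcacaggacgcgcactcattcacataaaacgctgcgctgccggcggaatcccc
Zfp36: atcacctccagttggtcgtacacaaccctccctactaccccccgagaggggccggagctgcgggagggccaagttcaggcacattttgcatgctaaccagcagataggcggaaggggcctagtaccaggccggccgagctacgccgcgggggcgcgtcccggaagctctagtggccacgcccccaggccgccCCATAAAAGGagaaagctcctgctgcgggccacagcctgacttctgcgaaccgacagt
Actg1: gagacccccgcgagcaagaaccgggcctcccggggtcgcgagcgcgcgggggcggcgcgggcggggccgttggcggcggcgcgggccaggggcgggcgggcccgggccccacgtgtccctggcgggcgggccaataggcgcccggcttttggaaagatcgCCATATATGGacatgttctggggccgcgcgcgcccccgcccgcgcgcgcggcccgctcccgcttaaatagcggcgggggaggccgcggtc
Maff: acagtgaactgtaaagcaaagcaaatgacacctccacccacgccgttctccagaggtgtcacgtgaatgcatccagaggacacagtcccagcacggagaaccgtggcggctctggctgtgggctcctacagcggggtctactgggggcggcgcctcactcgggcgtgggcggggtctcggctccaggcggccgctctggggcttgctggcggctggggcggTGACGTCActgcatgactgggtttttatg
Dusp1: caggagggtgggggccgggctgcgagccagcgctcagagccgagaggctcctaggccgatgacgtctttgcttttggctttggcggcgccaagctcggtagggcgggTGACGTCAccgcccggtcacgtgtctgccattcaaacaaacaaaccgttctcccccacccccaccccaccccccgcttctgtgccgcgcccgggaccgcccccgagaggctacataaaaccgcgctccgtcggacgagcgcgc

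Windows from 250 bases before to 50 after a start site were given for 10568 of the genes tested, among them 282 of the risers and 232 of the fallers. A CArG box was present for 14 of the 282 risers (4.96%), 4 of the 232 fallers (1.72%) and 165 of the 10568 genes (1.56%). The shares for the CRE were 4.61%, 3.02% and 3.54%, and those for the AP-1 motif TGANTCA were 7.45%, 6.90% and 6.00%. The ETS motif CCGGAAG was found for 9.22% of the risers, 11.2% of the fallers and 19.4% of all genes. For the EGR motif GCGTGGG the shares were 13.5%, 10.3% and 10.0%, and for the E-box CACGTG 13.5%, 10.3% and 11.6%. These are descriptions of letters in short windows and were not tested.

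Secreted factors and their receptors changed in both directions. *Fgf4*, the FGF ligand that mESCs make themselves, fell from 156 and 160 CPM to 104 and 102 CPM on soft and from 166 and 144 CPM to 98.7 and 97.7 CPM on stiff. The fall was 0.63 on the log2 scale (SE 0.04), without overlap, and *Fgf3* fell with it. *Fgfbp1*, which releases FGFs from the matrix, rose by 0.80 ± 0.08 from between 9.76 and 14 CPM to between 17.3 and 23.1 CPM. The other 11 of 14 FGF ligands and receptors tested did not pass the threshold. *Hbegf*, a ligand of the EGF receptor, rose by 0.79 ± 0.08 and was the only called member of 8. Among 17 Eph receptors and ephrins *Epha2* rose from between 81.4 and 91.0 CPM to between 113 and 144 CPM (0.61 ± 0.04), together with *Epha7* (0.36 ± 0.09), whereas the ligands *Efna4* (-0.59 ± 0.09) and *Efna3* (-0.48 ± 0.13) and the receptor *Ephb4* (-0.19 ± 0.04) fell. The call of *Epha7* was lost without soft 0 h replicate 1, soft 2 h replicate 1 or stiff 0 h replicate 2 (0.31 to 0.40). Of 16 protease, adhesion and secreted ERK targets, *Plaur*, the urokinase receptor, rose by 0.94 ± 0.13, beside *Ptgs2* and small rises of *Lamc1* and *Spp1*. The call of *Lamc1* was lost without stiff 0 h replicate 1 or stiff 2 h replicate 2 (0.11 to 0.17) and that of *Spp1* without any 1 of the 8 libraries (0.09 to 0.11), with all 12 libraries and without the substrate block.

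**Figure D3:**
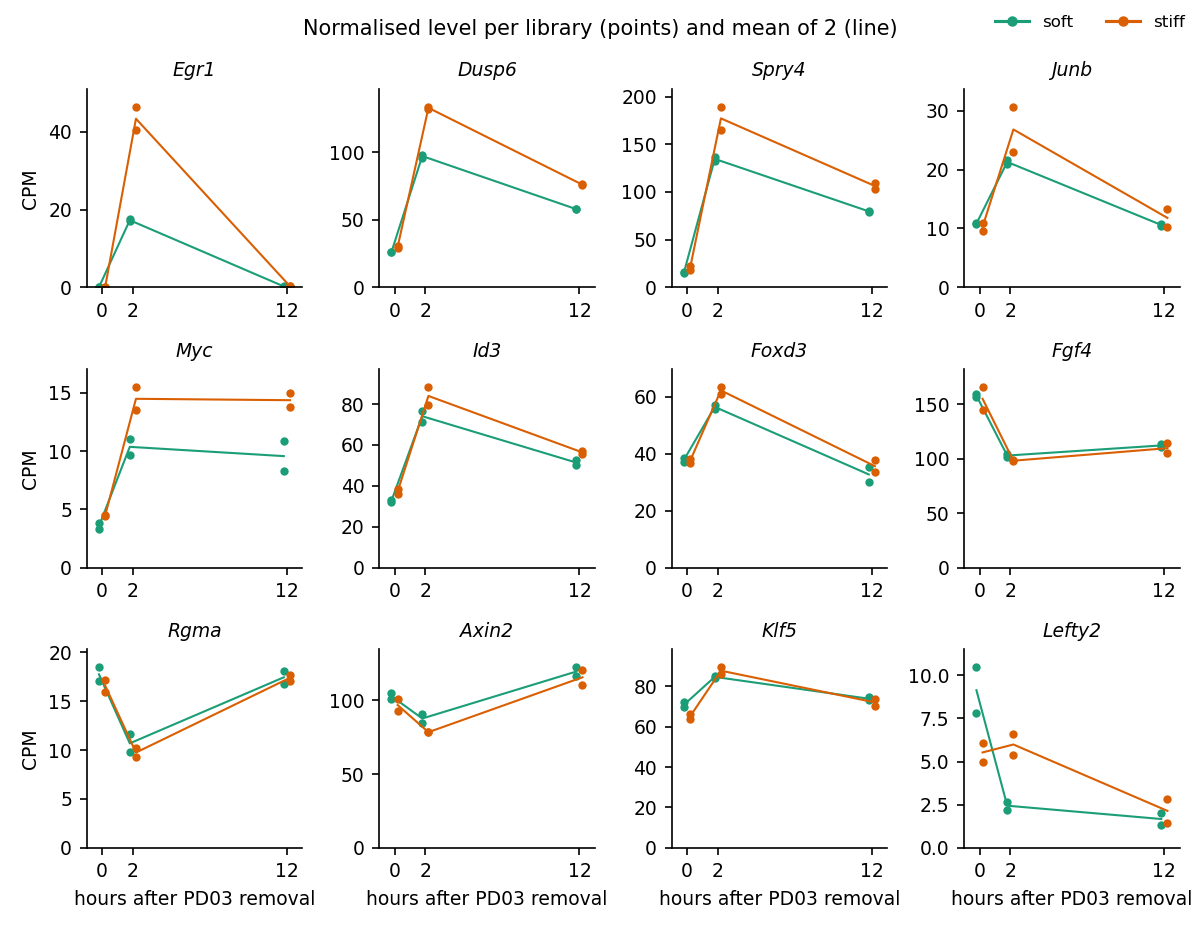
CPM of 12 genes against hours after PD03 removal, with 1 point per library, soft in green and stiff in orange, and a line through the mean of 2. *Egr1* and *Junb* peak at 2 h, *Myc* stays at its level of 2 h at 12 h, *Foxd3* returns towards that of 0 h, *Rgma* and *Axin2* dip at 2 h, and *Lefty2* is lower at 2 h on soft substrates but not on stiff.

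Called pluripotency factors moved by small amounts. Of 14 general pluripotency factors 5 rose and none fell in edgeR or DESeq2, also at an unadjusted p under 0.05 (0 genes). *Foxd3* went from 38.6 and 37.1 CPM to 57 and 55.8 CPM on soft and from 38.2 and 36.7 CPM to 63.3 and 61.1 CPM on stiff (0.66 ± 0.05). *Sox2* rose by 0.28 ± 0.03 from between 349 and 354 CPM to between 411 and 443 CPM, with *Utf1* (0.45 ± 0.08) and *Zfp281* (0.22 ± 0.04), while *Pou5f1* had a log2 fold change of 0.02 ± 0.03 (adjusted p = 0.84). Of 24 naive factors *Nr0b1* (0.42 ± 0.04), *Klf5* (0.35 ± 0.04), *Dppa2* (0.24 ± 0.04) and *Tbx3* (0.20 ± 0.04) rose. *Klf2* (-0.20 ± 0.04) and *Nanog* (-0.11 ± 0.03) fell, *Zfp42* was at 0.01 ± 0.03 (adjusted p = 0.92), and the median of the list was 0.0168. Only 1 naive factor fell with all 12 libraries, and 1 to 2 when 1 library was left out. Of 20 formative and primed genes *Dnmt3l* (0.22 ± 0.04) and *Zic2* (0.17 ± 0.05) rose and *Nkx1-2* (-0.44 ± 0.08) fell, with a median of -0.0525. The call of *Zic2* was lost in 6 of the 8 fits that each left out a library, those without soft 0 h replicate 2, soft 2 h replicate 1 or any 1 of the 4 stiff libraries, which gave 0.14 to 0.21 over the 8, and also with DESeq2 and without the substrate block. That of *Dnmt3l* was lost without the substrate block.

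LIF was present throughout, and 6 of 22 genes of the LIF and Stat3 pathway rose with 1 that fell. The kinase genes *Pim3* (0.44 ± 0.04) and *Pim1* (0.20 ± 0.04) and the feedback inhibitor *Socs3* (0.16 ± 0.04) were among them, and *Il6st*, the shared receptor chain gp130, was at -0.13 ± 0.03. *Pim3* was between 84.4 and 89.3 CPM at 0 h and between 107 and 124 CPM at 2 h. The call of *Socs3* was lost without stiff 0 h replicate 1 (0.13 to 0.19), and that of *Il6st* without soft 0 h replicate 1, soft 2 h replicate 2, stiff 0 h replicate 1 or stiff 2 h replicate 1 (-0.15 to -0.11), and without the substrate block. The number of risers in this list fell to between 2 and 5 when 1 library was left out. In the BMP pathway 3 of 17 genes rose and none fell in edgeR or DESeq2, also at an unadjusted p under 0.05 (0 genes). *Id3* went from 32.2 and 33.2 CPM to 71.3 and 76.8 CPM on soft and from 36.1 and 38.4 CPM to 88.2 and 79.7 CPM on stiff (1.18 ± 0.05), *Id1* rose as given above, and the ligand gene *Bmp4* went from between 29.2 and 34.0 CPM to between 48.0 and 55.4 CPM (0.73 ± 0.06). These 3 genes were still above their 0 h range at 12 h, *Id3* between 50.2 and 57.0 CPM and *Bmp4* between 48.0 and 54.9 CPM.

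In the Nodal and TGF beta pathway 2 of 22 genes rose and 3 fell. The inhibitory *Smad7* (0.57 ± 0.04) and the corepressor gene *Tgif1* (0.38 ± 0.04) rose, and the signal transducer *Smad3* fell by 0.45 (SE 0.08) from between 11.8 and 14.5 CPM to between 9.55 and 9.86 CPM. *Lefty1*, a Nodal antagonist, fell by 1.01 (SE 0.28) at levels of 1.48 CPM or less, a call lost without any 1 library except stiff 0 h replicate 2 (-1.13 to -0.87). Its relative *Lefty2* is described with the substrates. Among 21 Wnt feedback and target genes *Axin2* fell from between 92.5 and 105 CPM to between 78.3 and 90.5 CPM (-0.26 ± 0.04) although CHIRON was kept, *Cdx2* (-0.57 ± 0.10) and *Ccnd1* (-0.17 ± 0.04) fell and the receptor gene *Fzd7* (0.31 ± 0.06) rose. In the Notch list the nuclear effector *Rbpj* rose from between 120 and 122 CPM to between 153 and 174 CPM (0.42 ± 0.04), with its coactivator *Maml1* (0.32 ± 0.06) and the target *Hes1* (0.38 ± 0.08), 3 of 13 genes tested. The call of *Hes1* was not made by DESeq2. In the aryl hydrocarbon receptor list *Tiparp* rose from between 78.2 and 83.5 CPM to between 124 and 143 CPM (0.72 ± 0.04), whereas *Cyp1a1*, the classical target of that receptor, fell from between 25.3 and 28.1 CPM to between 16 and 20.9 CPM (-0.58 ± 0.07). The receptor gene *Ahr* fell too (-0.27), a call lost without any 1 of the 8 libraries (-0.29 to -0.24), with DESeq2 and without the substrate block.

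Among genes tied to the cytoskeleton some rose, most did not pass the threshold, and none fell in edgeR or DESeq2. Of 21 SRF and MRTF targets 8 rose, of 18 YAP targets and Hippo genes 4 rose, and of 23 integrin and focal adhesion genes *Vcl*, *Tns3* and *Tln1* rose. At an unadjusted p under 0.05 the numbers lower were 0, 0 and 2. The call of *Tln1* was lost without soft 0 h replicate 1, soft 2 h replicate 2, stiff 0 h replicate 1 or stiff 2 h replicate 2 (0.12 to 0.18). *Zyx*, a focal adhesion protein, went from 3.34 and 3.40 CPM to 5.74 and 4.77 CPM on soft and from 3.63 and 2.90 CPM to 7.31 and 7.09 CPM on stiff (0.92 ± 0.13). *Vcl* (vinculin, 0.28 ± 0.04), *Actn4* (0.22 ± 0.04), *Actg1* (0.16 ± 0.03), *Actb* (0.15 ± 0.03) and *Flna* (0.17 ± 0.04) rose by less. The matricellular genes *Cyr61* (0.81 ± 0.07) and *Ctgf* (0.64 ± 0.07), both known targets of YAP and of SRF, rose with the Hippo members *Lats2* (0.63 ± 0.09) and *Amotl2* (0.43 ± 0.04). *Cyr61* was between 16.1 and 17.0 CPM at 0 h and between 24.4 and 32.2 CPM at 2 h. At 12 h it was at 9.12 to 11.9 CPM, below every library of 0 h. The median log2 fold changes of these 3 lists were 0.0919, 0.0405 and 0.0671.

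**Figure D4:**
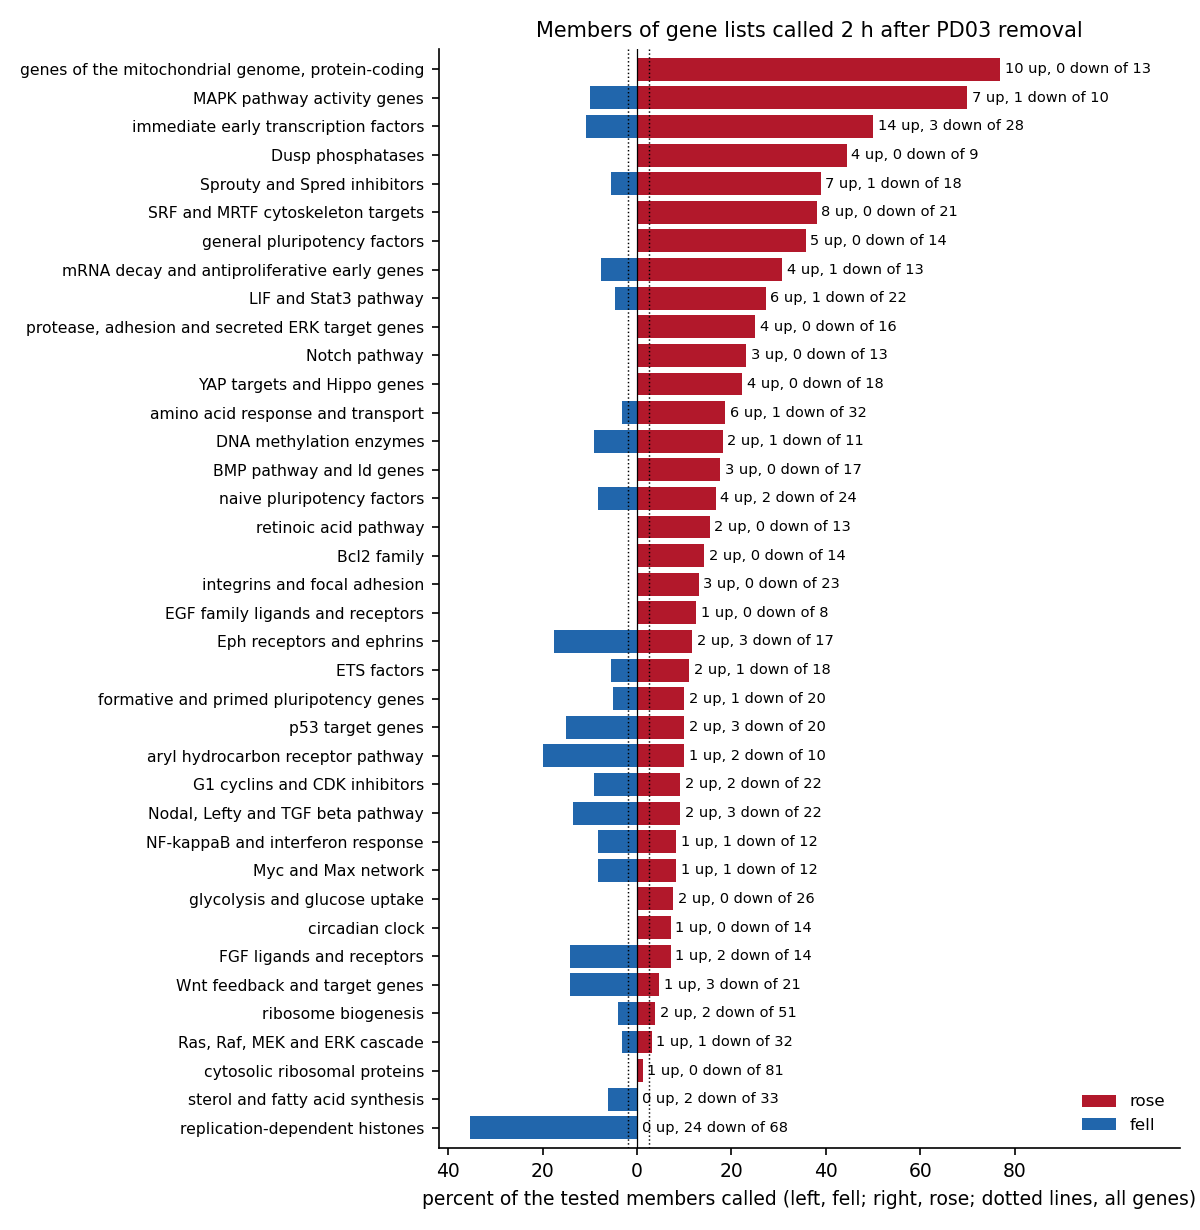
Percent of the tested members of each gene list that rose (red, to the right) or fell (blue, to the left) at 2 h, with the counts written beside the bars. Dotted lines mark 2.45% and 1.81%, the shares over all genes. The lists are those with at least 8 tested members and at least 1 call. Mitochondrial genes, MAPK activity genes and immediate early factors have the longest red bars and replication-dependent histones the longest blue bar.

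Growth and cell cycle genes were called in both directions, beside 2.45% of all genes that rose and 1.81% that fell. For ribosome biogenesis and ribosomal protein genes the numbers were near those shares. Of 12 Myc network genes *Myc* rose and *Mycl* fell (-0.25 ± 0.06). Among 22 G1 cyclins and CDK inhibitors *Cdk6* (0.21 ± 0.04) and *Ccnd3* (0.14 ± 0.04) rose and *Cdkn1a* (-0.28 ± 0.04) and *Ccnd1* fell, the call of *Ccnd3* being lost without soft 0 h replicate 1, soft 2 h replicate 2, either stiff library of 0 h or stiff 2 h replicate 1 (0.11 to 0.16), and without the substrate block. *Pmaip1*, the BH3-only gene Noxa, rose by 0.98 ± 0.11 from between 4.60 and 5.60 CPM to between 8.52 and 11.0 CPM, and *Bcl2l1* (Bcl-xL) rose by 0.24 ± 0.04, 2 of 14 Bcl2 family genes. The p53 targets divided, with *Pmaip1* and *Plk3* (0.86 ± 0.10) higher and *Cdkn1a*, *Sesn1* and *Phlda3* lower among 20, *Sesn1* only with stiff 0 h replicate 2 in the fit (-0.23 to -0.17). Of 51 ribosome biogenesis genes *Rrs1* and *Rrn3* rose and *Ncl* and *Ubtf* fell, and of 81 cytosolic ribosomal protein genes *Rps16* rose. The calls of *Rrn3* (0.12 to 0.16 over the 8 fits without 1 library) and *Ncl* (-0.23 to -0.12) were lost without soft 0 h replicate 1, and that of *Ncl* also without soft 2 h replicate 2. That of *Ubtf* (-0.16 to -0.11) was lost without any 1 soft library or stiff 0 h replicate 1, and that of *Rps16* (0.10 to 0.18) without soft 0 h replicate 1, soft 2 h replicate 2, stiff 0 h replicate 1 or stiff 2 h replicate 1. DESeq2 called neither *Ncl* nor *Rps16*, and *Rps16* was also lost with all 12 libraries and without the substrate block. None of 18 heat shock genes passed the threshold in edgeR or DESeq2, 1 being lower at an unadjusted p under 0.05, and *Hsp90ab1* was between 4668 and 4881 CPM at 0 h and between 4722 and 4819 CPM at 2 h.

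Amino acid response and transport genes rose in 6 of 32 cases and fell in 1, with *Slc7a3* (0.21 ± 0.04) and *Mthfd2* (0.21 ± 0.05) as examples, but the call of *Mthfd2* was lost without the substrate block and the number of risers ranged from 2 to 8 over the alternatives. Of 33 genes of sterol and fatty acid synthesis the desaturase genes *Scd2* (-0.19 ± 0.03) and *Scd1* (-0.13 ± 0.03) fell, and none rose in edgeR or DESeq2, also at an unadjusted p under 0.05 (0 genes). Of 26 glycolysis genes *Txnip* (0.33 ± 0.04) and *Pdk1* (0.26 ± 0.04) rose. Of 14 circadian clock genes *Cry1* rose (0.23 ± 0.05). Of 12 NF-kappaB and interferon genes *Icam1* rose (0.25 ± 0.04) and *Nfkbia* fell by 0.49 (SE 0.08). Over all genes 2.45% rose and 1.81% fell, so that 1 call in a list this short says little about the list. *Tet1* (0.21 ± 0.04) and *Dnmt3l* were the risers among 11 DNA methylation enzymes, with *Uhrf2* at -0.16 ± 0.05, and *Rarg* (0.14 ± 0.04) was among the 2 risers of 13 retinoic acid genes. The retinoic acid risers numbered 0 to 1 when 1 library was left out. Among lineage markers *Pax6* (0.52 ± 0.14) was called of 3 neural markers and *Cdx2* of 3 trophoblast markers. Several of these calls did not hold when 1 library was left out. *Scd1* (-0.15 to -0.12 over the 8 fits) lost its call without soft 0 h replicate 1, soft 2 h replicate 2, stiff 0 h replicate 1 or stiff 2 h replicate 1, and *Cry1* (0.17 to 0.27) without soft 0 h replicate 2. *Pax6* (0.39 to 0.65) lost it without either soft library of 0 h, soft 2 h replicate 1 or stiff 2 h replicate 1. *Uhrf2* (-0.18 to -0.14) kept it only without soft 0 h replicate 2, and *Rarg* (0.13 to 0.15) only without soft 2 h replicate 1. DESeq2 did not call *Pax6* or *Uhrf2*. The call of *Uhrf2* was also lost with the replicate block and without the substrate block, that of *Scd1* without the substrate block, and that of *Rarg* without the filter on low counts and with all 12 libraries. No call was made by edgeR or DESeq2 among 4 mesendoderm, 3 primitive endoderm, 3 fibroblast and 6 cleavage-stage markers. At an unadjusted p under 0.05 these gave 1 higher and 1 lower mesendoderm marker and 1 higher fibroblast marker.

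Most transcripts of the mitochondrial genome rose. Of its 13 protein-coding genes 10 rose and none fell in edgeR or DESeq2 (0 at an unadjusted p under 0.05), with a median log2 fold change of 0.36, and both ribosomal RNAs rose as well. *mt-Co1*, a subunit of cytochrome oxidase, went from 2525 and 2370 CPM to 3060 and 3180 CPM on soft and from 3060 and 2416 CPM to 3663 and 3870 CPM on stiff (0.41 ± 0.05), the 2 h libraries lying above those of 0 h on each substrate. *mt-Cytb* (0.46 ± 0.05), *mt-Co2* (0.44 ± 0.06) and *mt-Atp6* (0.42 ± 0.06) rose by like amounts. On soft the 13 genes summed to 5931 to 6410 CPM at 0 h and to 7498 to 7518 CPM at 2 h. On stiff the sums were 5931 to 7511 CPM and 8789 to 9076 CPM. The stiff libraries of 0 h thus lay far apart, with the higher inside the range of soft at 2 h. The large ribosomal RNA gene *mt-Rnr2* rose by 0.47 ± 0.05, and the pair of mitochondrial rRNAs took 5.10% to 6.28% of the counts at 0 h, 6.39% and 6.98% on soft at 2 h and 8.64% and 8.02% on stiff at 2 h. These libraries were depleted of ribosomal RNA, and the part of that depletion in these values was not tested. The number of mitochondrial risers stayed between 7 and 11 over the alternatives. Of 190 unprocessed pseudogenes 10 also rose. Of these 8 lie in a cluster on chromosome 1 or in one on chromosome 2 that are known nuclear copies of mitochondrial sequence, and reads of the copies and of the mitochondrial genome cannot be told apart.

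Replication-dependent histones held the largest number of fallers of any list. Of 68 tested 24 fell and none rose in edgeR or DESeq2 (0 at an unadjusted p under 0.05), with a median of -0.12. *Hist1h2ai* went from 256 and 272 CPM to 205 and 215 CPM on soft and from 260 and 255 CPM to 225 and 219 CPM on stiff (-0.27 ± 0.04), and the 68 genes took 1.54% to 1.58% of the counts at 0 h and 1.30% to 1.44% at 2 h, without overlap. The count was 15 when the 12 h libraries joined the fit, 39 without the filter on low counts and from 16 to 34 when a library was left out. The histone genes are near-identical copies whose reads can be split between them, and the individual genes are therefore uncertain. Among 44 small nuclear RNA genes 6 fell and none rose in edgeR, also at an unadjusted p under 0.05 (0 genes). The share of the class did not separate the times. All 448 small nuclear RNA genes counted took 0.0885% to 0.118% of the counts at 0 h and 0.0646% to 0.131% at 2 h.

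In a test with 2 libraries per substrate and time, the 2 h response differed between substrates past the threshold in 1 gene of 18103 (0.00552%). At an unadjusted p under 0.05 (edgeR) 724 genes differed, and the lack of a call does not show equal responses. *Lefty2*, an antagonist of Nodal, went from 10.4 and 7.82 CPM to 2.2 and 2.68 CPM on soft substrates and from 6.08 and 4.97 CPM to 6.62 and 5.36 CPM on stiff substrates. Its log2 fold change was -1.91 on soft and 0.13 on stiff, a difference of -2.04 with an adjusted p of 0.0013 (edgeR). All libraries of 12 h were at 2.84 CPM or less. The same gene was called under each of the 14 alternatives to this fit. Over both substrates *Lefty2* had a log2 fold change of -0.77 ± 0.22, and that call was lost when any 1 of the 4 soft libraries was left out (-1.09 to -0.49 over the 8 fits), with DESeq2 and without the substrate block. The response of *Hes1* was 0.07 on soft and 0.66 on stiff, a difference that did not pass the threshold (adjusted p = 0.22). *Egr1* and *Fos* reached higher levels on stiff than on soft substrates at 2 h in both libraries, but the differences in log2 fold change, -1.04 and -1.18, had adjusted p-values near 1. The paper compared levels rather than responses, and reports most ERK-activated genes as lower on soft substrates, already at 2 h.

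CHIRON removal gave a second change of medium, in separate libraries and with PD03 kept, and so bears on which changes accompany either removal. Its 2 h comparison used 7 libraries, since 1 stiff library of 2 h, discarded by the study, held 171333 counts. It called 86 genes higher (0.416%) and 29 lower (0.14%) of 20696. Of the 444 risers after PD03 removal 432 were tested there, 5 rose (*Amotl2*, *Cited2*, *Irs2*, *Synpo2l* and *Zfp36*) and 7 fell (*Cdc42ep4*, *Id3*, *Sgk1*, *Spry2*, *Spry4*, *Tiparp* and *Zfp553*). The 5 shared risers are 5.81% of the 86 and 1.13% of the 444. Of the 327 fallers 5 fell (*Axin2*, *Cdkn1a*, *Patz1*, *Rnf114* and *Slc30a2*) and 4 rose, *Fgf4*, *Lrrc15*, *Pcf11* and *4930461G14Rik*. The median log2 fold change of the risers after CHIRON removal was -0.0328. No mitochondrial gene and no histone passed the threshold (edgeR) after CHIRON removal, where their medians were 0.00443 and 0.118 and 2360 of all genes had an unadjusted p under 0.05.

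The difference between both responses was tested in 1 fit of the 15 libraries. The response to PD03 removal was the higher for 290 genes (1.33%) and the lower for 215 (0.985%) of 21820. Among those with the smallest p, *Spry4* differed by 4.26 ± 0.12, with 3.13 after PD03 removal and -1.12 ± 0.10 after CHIRON removal. *Id3* differed by 2.82 ± 0.12 (1.18 and -1.62 ± 0.12), *Dusp6* by 2.37 ± 0.10 (2.03 and -0.33 ± 0.10) and *Egr1* by 8.05 ± 0.44 (8.54 and 0.51 ± 0.27). *Tiparp* differed by 1.41 ± 0.09, having risen by 0.72 in one case and fallen by 0.67 in the other. In the opposite direction *Fgf4* differed by -1.17 ± 0.07, with -0.63 after PD03 removal and 0.56 ± 0.06 after CHIRON removal, and *Pcf11*, a factor of transcript cleavage, by -0.78 ± 0.07. *Ppp1r10*, a regulator of protein phosphatase 1, differed by -1.54 ± 0.08, with 1.55 ± 0.06 after CHIRON removal, and stood between 104 and 110 CPM at 0 h and between 100.3 and 112 CPM at 2 h after PD03 removal. *4930461G14Rik*, a long noncoding RNA, and *Klhdc7a* differed by -1.64 ± 0.11 and -1.05 ± 0.11. The counts of CHIRON removal were less stable than those of PD03 removal. With the discarded library included edgeR called 0 genes at 2 h of CHIRON removal (379 at an unadjusted p under 0.05) and 31 genes for the difference, and without its only other stiff library of 2 h it called 20 and 257.

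**Figure D5:**
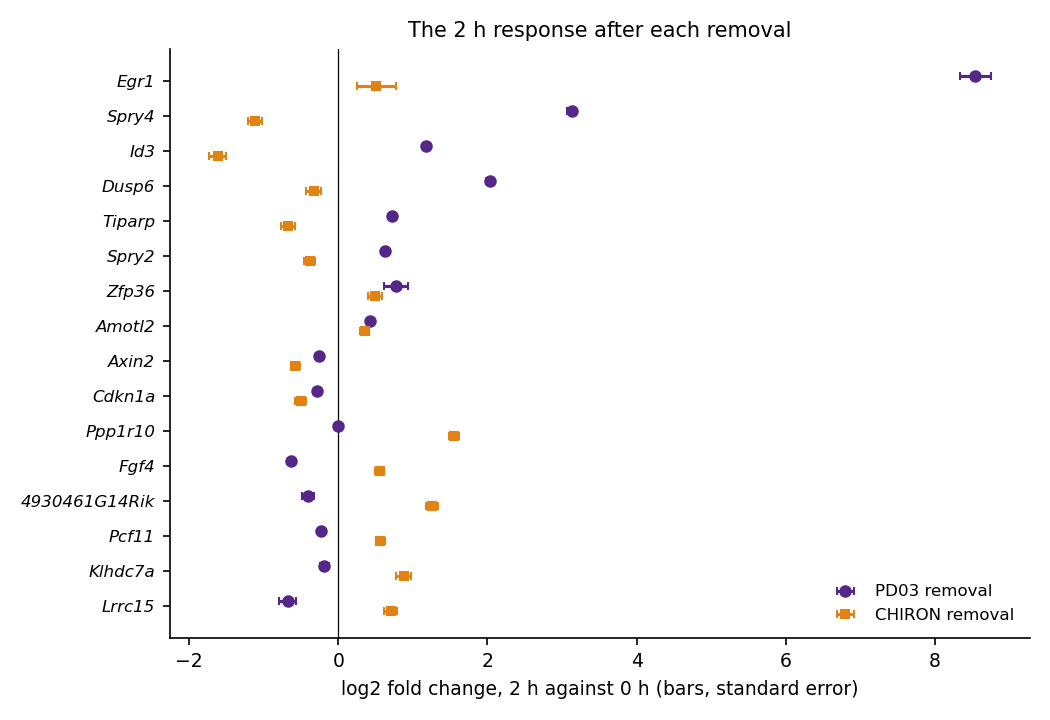
Log2 fold changes at 2 h against 0 h of 16 genes after PD03 removal (purple circles) and after CHIRON removal (orange squares), with bars for the SE. *Spry4*, *Id3*, *Tiparp* and *Spry2* lie on opposite sides of zero in the 2 experiments, as do *Fgf4*, *Pcf11*, *4930461G14Rik* and *Lrrc15*, while *Zfp36* and *Amotl2* rose and *Axin2* and *Cdkn1a* fell in both.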

How the data were processed

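The authors trimmed reads with Trim Galore, aligned them with TopHat2 2.1.0 to mm10 (GRCm38) and counted reads per gene with featureCounts 1.5.0. The deposited values are raw counts, and whether counting used strand is not stated, so antisense and overlapping genes cannot be told apart. In the table used, 12 columns belong to samples not analysed here, and 23 empty lines and 15 identifiers turned into dates, at most 0.1525% of a library's counts, were left out. Genes were filtered with filterByExpr (minimum count 10, total 15), scaled by TMM and tested in edgeR 4.0.16 (R 4.3.3) by quasi-likelihood with substrate as a block, time as the effect, and Benjamini-Hochberg adjustment at 0.05. The SE is the log2 fold change over the square root of F. The difference between substrates is an interaction term. The scripted tests were tested on simulated data. Alternatives were DESeq2 1.42.0, other size factors, no filter, protein-coding genes, a replicate block, all 12 libraries, no substrate block and each library left out. Named genes were *Egr1*, *Fos* and *Dusp6*, the 12 largest changes each way (mean of at least 1 CPM, replicates separate on each substrate), up to 4 called members per gene list with the smallest adjusted p, and the genes with the smallest adjusted p between substrates and between removals. *Actb*, *Arc*, *Cdc42ep4*, *Cited2*, *Csrnp1*, *Dusp9*, *Efna3*, *Egr2*, *Errfi1*, *Etv5*, *Flna*, *Gadd45a*, *Gadd45b*, *Ier2*, *Il17rd*, *Irs2*, *Jun*, *Klf10*, *Klf2*, *Klf6*, *Lrig1*, *Patz1*, *Phlda3*, *Rnf114*, *Sgk1*, *Slc30a2*, *Spry1*, *Srf*, *Synpo2l*, *Utf1*, *Zc3h12a*, *Zfp553* and *mt-Rnr2* fall outside that rule and were chosen after their values were seen. The comparison and the lists were chosen with earlier results of these data known. Some genes that the rule names are not reported here.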

Additional observations from a re-analysis of the deposited data

Results flagged for a closer look

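*Lefty2* is the gene whose 2 h response to PD03 removal differed between substrates by a test of the difference itself (edgeR interaction term). The log2 fold change on soft substrates minus that on stiff substrates was -2.04, with an adjusted p of 0.0013. Both soft libraries of 2 h (2.2 and 2.68 CPM) were below both soft libraries of 0 h (10.4 and 7.82 CPM), while on stiff substrates the ranges overlapped (6.08 and 4.97 CPM at 0 h, 6.62 and 5.36 CPM at 2 h).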

How the results depend on the processing

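The counts of risers and fallers at 2 h were 344 and 219 with DESeq2, 462 and 440 without the filter on low counts, 401 and 343 with all 12 libraries, and 362 and 237 without the substrate block. With a limit of 0.5 on the log2 scale 105 rose and 45 fell. Leaving out 1 library gave 332 to 411 risers and 200 to 269 fallers, the fewest fallers without stiff 0 h replicate 1. Replicate numbers did not pair the libraries (correlations of deviations from -0.034 to 0.0527), and the fit with the replicate block gave 457 and 337. Of 133 named and called genes 101 kept their call under all 15 alternatives, 32 lost it under at least 1 and none changed sign. For the difference between substrates, no filter gave 18 genes and leaving out 1 library 1 to 7, the most without soft 2 h replicate 2. CHIRON removal gave 207 genes with DESeq2, 457 without the filter, 54 with the replicate block, 0 with the discarded library (379 at an unadjusted p under 0.05, edgeR), and 20 to 172 when 1 library was left out. The lowest, 20, was without stiff 2 h replicate 2, followed by 30 and 33 without a soft library of 0 h and 65 without soft 2 h replicate 1, and the highest without stiff 0 h replicate 1. The difference between removals gave 31 genes with the discarded library and 257 to 718 when 1 library was left out, the extremes without stiff 2 h replicate 2 and soft 2 h replicate 2 of CHIRON removal. The causes were not tested.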
